A study of Mus musculus with 13 samples.

Results

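Creatine and adenylate energy buffer genes were followed in gastrocnemius muscle and aorta of mice with and without a FOXM1 transgene, all 88 weeks old. The group holds 8 genes chosen by name, of the 19838 genes in each deposited table, and all 8 are in the tables. They are Ckm and Ckmt2, the muscle creatine kinase and the sarcomeric mitochondrial creatine kinase; Ckb and Ckmt1, the brain-type and the ubiquitous mitochondrial creatine kinase; Ak1 and Ampd1, the cytosolic adenylate kinase and the muscle AMP deaminase; and Gatm and Gamt, the enzymes that make creatine.

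Creatine kinases move a phosphate between ATP and creatine, so that phosphocreatine can refill ATP when a fibre contracts. Mitochondrial forms load the phosphate onto creatine where ATP is made, and cytosolic forms return it to ADP at the myofibrils. Adenylate kinase turns a pair of ADP molecules into ATP and AMP, and AMP deaminase removes that AMP as IMP. Creatine is made in consecutive steps by Gatm, which forms guanidinoacetate, and Gamt, which methylates it; much of this synthesis takes place in kidney and liver, and muscle takes creatine up from blood.

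All 13 libraries carried the Rosa26-rtTAtg/+ allele, a reverse tetracycline transactivator at the Rosa26 locus, in an FVBxC57BL/6 background. The dNdK libraries carried GFP-FOXM1dNdKtg/+, a transgene for GFP and a truncated form of the transcription factor FOXM1, and the Rosa26 libraries are given as GFP-FOXM1dNdK-/-. There were 3 dNdK and 4 Rosa26 libraries of gastrocnemius, and 2 dNdK and 4 Rosa26 libraries of aorta. The labels name no sex, no doxycycline and no sequencing run, and they do not tie libraries to animals. Nothing states that libraries of a group come from separate animals, so p-values measure the spread between these libraries.

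RNA was amplified with a targeted primer pool and read on an Ion Torrent sequencer, and the deposited values are read counts per gene. Counts from such amplicons do not scale with transcript length, and primers differ in yield, so levels of different genes are not ranked here. Levels are counts scaled to library size (CPM) and by the TMM method over all 13 libraries. Depth ran from 3919526 to 13683952 gene counts, and a floor of 3 counts stood for 0.165 to 0.641 CPM. Reads of Foxm1 numbered 0 to 3 in dNdK muscle, 1 to 3 in Rosa26 muscle, 2 and 5 in dNdK aorta and 2 to 24 in Rosa26 aorta, so this gene does not check the genotype labels, and whether its amplicon reads the transgene is not given in the sources used here. The 13 markers of fast skeletal fibres summed to between 226356 and 381472 CPM in dNdK muscle and between 343913 and 382701 CPM in Rosa26 muscle, against 15.8 to 28.8 CPM in all aorta libraries. Of the 10 tested smooth muscle markers, 3 were called higher and 5 lower in Rosa26 muscle than in Rosa26 aorta by edgeR. In that comparison 58.4% of all genes tested were called and 27.5% were called higher. Of the list, Cald1 read 39.0 to 103 CPM in muscle and 90.5 to 214 CPM in aorta, Eln read 5.91 to 17.9 CPM in muscle and 23.9 to 48.3 CPM in aorta, Myh11 overlapped at 30.3 to 85.6 CPM in muscle and 51.6 to 83.0 CPM in aorta, and the untested Tagln was at or below 0.158 CPM in every library. Going the other way, Des read 4840 to 7824 CPM in muscle and 67.6 to 165 CPM in aorta. Synpo2 read 863 to 1984 CPM against 25.8 to 46.4 CPM, and Smtn 108 to 181 CPM against 31.3 to 62.8 CPM. The list summed to 6063 to 10089 CPM in muscle and 491 to 759 CPM in aorta, so as a whole it did not mark the aorta. Ucp1, the uncoupling protein of brown fat, read 3762 to 6994 CPM in the aorta libraries, so these hold RNA of thermogenic fat.

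Several libraries stood apart in ways that the groups do not explain. The heart myosin gene Myh6 was above 100 CPM in 3 aorta libraries, dNdK 2, Rosa26 1 and Rosa26 2, and at or below 1.47 CPM in the other aorta libraries. Muscle dNdK 3 read 756 CPM of Ucp1 and 139 CPM of Adipoq, the adiponectin gene, while no other muscle library exceeded 7.78 CPM of Ucp1 or 8.99 CPM of Adipoq. By the share of each gene's reads that lay on the first strand, compared over 5456 genes, the libraries fell into a set of 6 and a set of 7, called set 1 and set 2 here. Set 1 held muscle dNdK 1 and 3, muscle Rosa26 1 and 4, and aorta Rosa26 3 and 4; set 2 held muscle dNdK 2, muscle Rosa26 2 and 3, aorta dNdK 1 and 2, and aorta Rosa26 1 and 2. Pearson correlations of these shares were at least 0.710 within set 1, at least 0.552 within set 2 and at most 0.659 between the sets. No label names these sets, and in aorta set 1 holds no dNdK library.

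The bases just before the annotated start of Ckm and Ckmt2 are shown because both kinases were higher in muscle and were high in the same aorta libraries. Their ratio differed between the tissues, as given below. Both sequences are from RefSeq on GRCm38.p6 and run 5′ to 3′ on the gene's own strand, with capitals marking CAGCTG and CACCTG, forms of the E-box bound by myogenic factors. The Ckm stretch lies at chr7:19410844-19411093 on the plus strand and the Ckmt2 stretch at chr13:91876924-91877135 on the minus strand.
Ckm: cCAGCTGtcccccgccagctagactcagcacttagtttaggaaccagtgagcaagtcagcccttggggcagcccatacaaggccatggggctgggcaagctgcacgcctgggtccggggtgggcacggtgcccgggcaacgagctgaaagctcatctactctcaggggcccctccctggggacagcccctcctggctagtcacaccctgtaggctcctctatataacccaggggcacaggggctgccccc
Ckmt2: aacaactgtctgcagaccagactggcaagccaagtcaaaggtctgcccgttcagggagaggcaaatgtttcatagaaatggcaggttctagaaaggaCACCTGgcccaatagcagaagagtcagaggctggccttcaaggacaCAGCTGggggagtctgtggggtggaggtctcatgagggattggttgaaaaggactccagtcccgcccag
The Ckm stretch has 250 bases and the Ckmt2 stretch 212, each ending at the base before the RefSeq span of its gene. Counted back from that span, CAGCTG lay at bases 249 to 244 before Ckm and 69 to 64 before Ckmt2, and CACCTG at bases 115 to 110 before Ckmt2. Over 250-base windows before 32851 annotated starts, searched on both strands, CAGCTG occurred in 13% and CACCTG in 17.22%, so neither is rare. CTA and TAG with any 4 bases between them, a pattern looser than the MEF2 motif, was in 3.2% of windows. TNAAGGTCA, a form of the estrogen-related receptor motif, was in 1.14%. Neither of these was found before Ckm or Ckmt2. Of the other genes, Ak1 had 1 CAGCTG before each of 2 of its 4 annotated starts and 2 CACCTG before another, Gatm had 1 CACCTG, Ckb had 1 match to the loose CTA and TAG pattern, and Ckmt1 and Gamt had no match. Ampd1 was not searched, since it did not match an entry of the promoter table used. Such matches describe letters and not binding.

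Gastrocnemius held far more of the muscle creatine kinases, Ak1 and Ampd1 than aorta, and also more Gamt, while Gatm was not called. The comparison of Rosa26 muscle with Rosa26 aorta asks which of these genes mark skeletal muscle against a vessel with its surrounding fat. By edgeR's quasi-likelihood test, adjusted over all genes, 5 of the 6 genes that passed the filter on low counts were called, and each was higher in muscle. Of all 11058 genes tested, 58.4% were called and 27.5% were called higher in muscle, and the Rosa26 tissues did not overlap for 52.8%, 25.9% with muscle higher. The median log2 fold change of the 6 was 5.37, against -0.08 over all genes tested. In bulk tissue, more cells of a type and more RNA per cell cannot be told apart. TMM scaling set the median of all genes 0.88 log2 units higher in muscle over aorta than scaling by library size alone, and Ckm, Ckmt2, Ak1, Ampd1 and Gamt stayed higher under both.

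**Figure D1:**
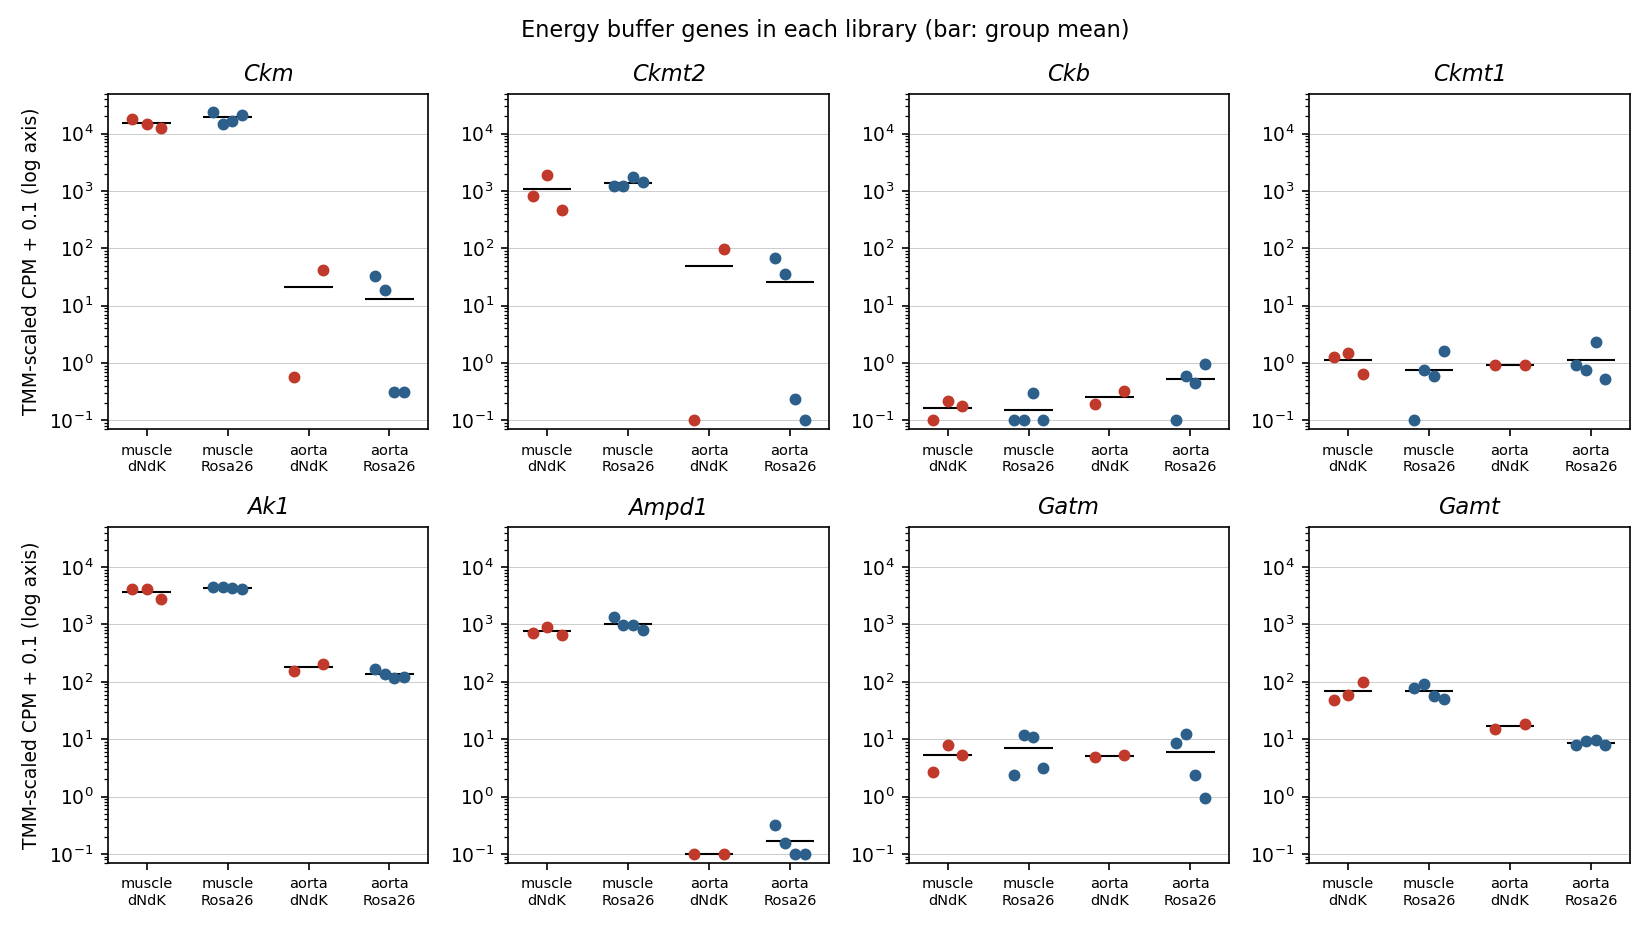
Level of each of the 8 genes in every library, in TMM-scaled CPM plus 0.1 on a log axis, with dNdK libraries in red, Rosa26 libraries in blue and a bar at each group mean. Ckm, Ckmt2, Ak1 and Ampd1 lie far higher in muscle than in aorta, Ckm and Ckmt2 split the aorta libraries into high and near-zero ones, and Ckb lies near the floor throughout.

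Ckm (chr7:19411094-19421583) read 17712, 14851 and 12757 CPM in the dNdK muscle libraries and 23830.3, 14856, 16892 and 20831 CPM in the Rosa26 muscle libraries. In aorta it read 0.461 and 41.6 CPM in the dNdK libraries, against 33.4, 18.4, 0.209 and 0.214 CPM in the Rosa26 libraries. Every muscle library was far above every aorta library, and the aorta libraries of both genotypes were split between 18.4 to 41.6 CPM and near zero. Rosa26 muscle was higher than Rosa26 aorta by 10.48 on the log2 scale (SE 1.51, edgeR adjusted p = 0.000199). This estimate was 16.40 without the aorta libraries with heart RNA, 16.58 within set 1 and 9.30 within set 2, 11.48 without aorta Rosa26 1, and 13.61 in the 3 pairs of libraries that share a file name number, with that number as a block. Pooled over libraries and scaled to library size only, the ratio of Rosa26 muscle to Rosa26 aorta was 631 (95% counting interval 589 to 678), and that of dNdK muscle to dNdK aorta was 424 (390 to 461). These intervals cover counting error only, not the spread between libraries, so they do not compare the genotypes. Libraries with heart RNA held most of the aorta reads. Rosa26 1 and 2 held 454 and 335 of 793 Rosa26 counts, and dNdK 2 held 551 of 556 dNdK counts.

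Ckmt2 (chr13:91853386-91876923) read 831, 1912 and 469.6 CPM in dNdK muscle, against 1213, 1206, 1717 and 1431 CPM in Rosa26 muscle. In aorta it read 0 and 98.5 CPM in the dNdK libraries, against 68.1, 35.1, 0.140 and 0 CPM in the Rosa26 libraries. The muscle libraries again lay above all aorta libraries, and the libraries of aorta that were near zero for Ckm were near zero for Ckmt2. The Rosa26 tissue difference was 53.3-fold (log2 5.74, SE 1.41, edgeR adjusted p = 0.00553). It was 13.56 on the log2 scale without the libraries with heart RNA, 13.42 within set 1, 4.86 within set 2, 6.83 without aorta Rosa26 1 and 9.41 with the file name number as a block.

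Within a library, reads of Ckmt2 can be set against reads of Ckm, since primer yield then cancels between libraries. The ratio was 2.37 in aorta dNdK 2, and 2.04 and 1.91 in aorta Rosa26 1 and 2. In muscle it was 0.0469, 0.129 and 0.0368 in the dNdK libraries and 0.0509, 0.0812, 0.102 and 0.0687 in the Rosa26 libraries. The aorta libraries with heart RNA thus held far more Ckmt2 per Ckm read than any muscle library, and the ranges did not overlap. In the other aorta libraries both genes had 5 counts or fewer, too few for a ratio. The ratio of Ampd1 to Ckm reads was 0.0380 to 0.0647 over the muscle libraries, against 0 in aorta dNdK 2, 0.00661 in aorta Rosa26 1 and 0.00299 in aorta Rosa26 2.

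Ckb (chr12:111669355-111672338), the creatine kinase best known from brain and also studied in thermogenic fat, was barely read in either tissue. It had 0, 1 and 1 counts in dNdK muscle, 0, 0, 2 and 0 in Rosa26 muscle, 1 and 3 in dNdK aorta, and 0, 9, 5 and 4 in Rosa26 aorta. Most libraries lay at or below the floor of 3 counts, and the gene was not tested in any comparison. The yield of its amplicon is not known, so these counts do not show how much Ckb RNA was present. Ckmt1 (chr2:121357773-121363737), the mitochondrial partner of Ckb outside sarcomeric muscle, averaged 1.04 ± 0.439 CPM in dNdK muscle (SD, n = 3), 0.666 ± 0.628 in Rosa26 muscle (n = 4), 0.829 ± 0.000359 in dNdK aorta (n = 2) and 1.03 ± 0.816 in Rosa26 aorta (n = 4). The groups overlapped, and counts ran from 0 to 32. Ckmt1 overlaps Strc and Gm33947 in the annotation, and how reads of overlapping genes were assigned is not given in the sources used here; Ckm overlaps A930016O22Rik, and the other 6 genes overlap none.

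Ak1 (chr2:32621758-32635058) read 4191, 4124 and 2785 CPM in dNdK muscle and 4557, 4496, 4265 and 4192 CPM in Rosa26 muscle. In aorta it read 154 and 205 CPM in the dNdK libraries, against 169.6, 136, 118 and 122 CPM in the Rosa26 libraries. Unlike Ckm and Ckmt2, Ak1 was read at over 100 CPM in every aorta library, with or without heart RNA. Rosa26 muscle was 32.0-fold higher than Rosa26 aorta (log2 5.0, SE 0.23, edgeR adjusted p = 1.24e-07), and the estimate lay between 4.12 and 5.23 over 20 alternatives.

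Ampd1 (chr3:103073897-103099720) was read in every muscle library and hardly in aorta. It read 715, 893 and 663 CPM in dNdK muscle and 1363, 961, 992 and 791 CPM in Rosa26 muscle, against 0 counts in both dNdK aorta libraries and 3, 1, 0 and 0 counts in the Rosa26 aorta libraries. No aorta library was above the floor of 3 counts, heart RNA or not, and Rosa26 1 held 3 of the 4 Rosa26 aorta counts. Pooled and scaled to library size only, Rosa26 muscle to Rosa26 aorta gave a ratio of 6750 (95% counting interval 2640 to 24800). For dNdK muscle to dNdK aorta the 95% counting interval began at 3310, and the ratio was 4080 against an assumed 3 counts over the aorta group. The tissue difference was called (edgeR adjusted p = 7.77e-08).

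Gamt (chr10:80258151-80261025) read 48.4, 58.2 and 99.6 CPM in dNdK muscle and 78.8, 90.8, 56.7 and 50.3 CPM in Rosa26 muscle, against 15.1 and 18.5 CPM in dNdK aorta and 7.73, 9.28, 9.42 and 7.69 CPM in Rosa26 aorta. All muscle libraries lay above all aorta libraries. Rosa26 muscle was 8.02-fold higher than Rosa26 aorta (log2 3.00, SE 0.24, edgeR adjusted p = 2.99e-06), with 2.12 to 3.14 on the log2 scale over 20 alternatives. Gatm (chr2:122594473-122611277), the enzyme before it, read 2.53, 7.71 and 5.28 CPM in dNdK muscle and 2.24, 11.7, 10.97 and 3.02 CPM in Rosa26 muscle, against 4.88 and 5.20 CPM in dNdK aorta and 8.32, 12.0, 2.30 and 0.854 CPM in Rosa26 aorta. The tissues overlapped, and the log2 difference of Rosa26 muscle over Rosa26 aorta was 0.22 (SE 0.73, 95% bounds -1.21 and 1.66, edgeR adjusted p = 0.81). It was -0.68 when scaled by library size alone, and 2.08 (edgeR adjusted p = 0.0472) without the aorta libraries with heart RNA. That fit set Rosa26 muscle of both library sets against Rosa26 aorta of set 1 only.

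Gatm levels went with the library sets in both tissues. In muscle Gatm read 2.24 to 5.28 CPM in set 1 and 7.71 to 11.7 CPM in set 2, and in aorta 0.854 to 2.30 CPM in set 1 and 4.88 to 12.0 CPM in set 2, with no overlap of the sets in either tissue. Set 1 of the aorta is Rosa26 3 and 4 only, with 33 and 4 Gatm counts. The share of all genes whose sets did not overlap was not computed, so this is not shown to be particular to Gatm. Ampd3, the AMP deaminase of red cells and many other tissues, was singled out after its values were seen. It read 7.90 to 8.02 CPM in set 1 and 41.2 to 74.3 CPM in set 2 of the aorta libraries, while its muscle sets overlapped at 4.86 to 29.9 and 21.5 to 37.9 CPM. Within sets, the Rosa26 tissue difference of Gatm was 0.62 in set 1 and 0.18 in set 2 on the log2 scale. What the sets stand for was not tested.

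**Figure D2:**
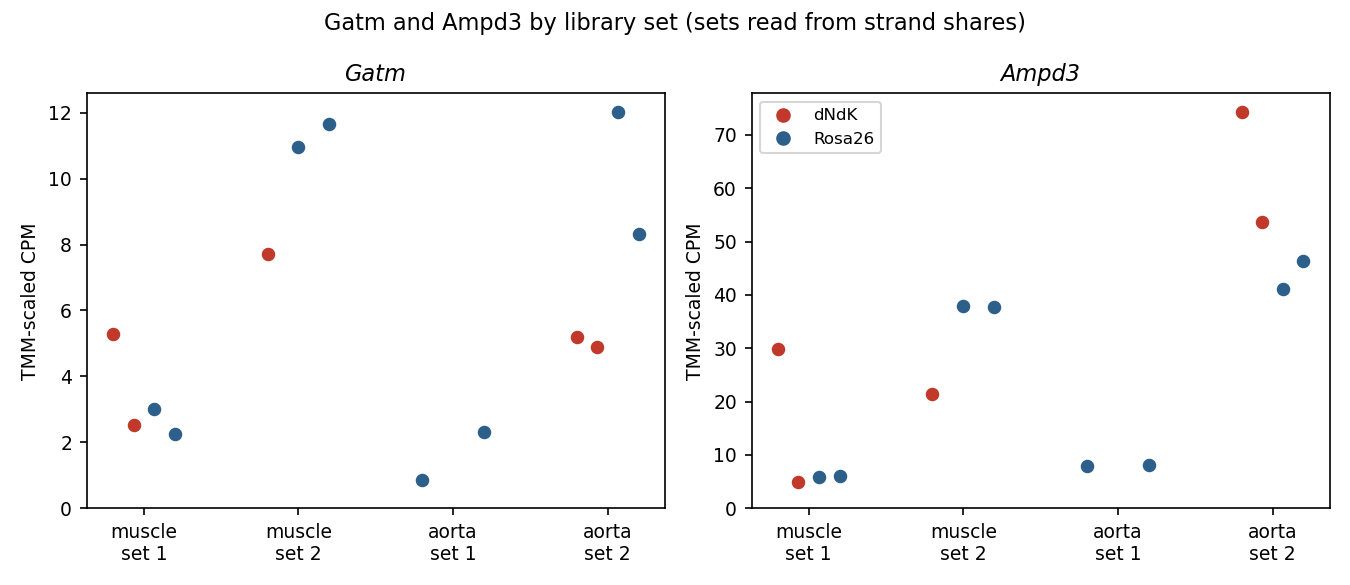
Level of Gatm (left) and Ampd3 (right) in TMM-scaled CPM on linear axes, by tissue and library set, with dNdK libraries in red and Rosa26 libraries in blue. Gatm is 2.24 to 5.28 CPM in muscle set 1 against 7.71 to 11.7 CPM in muscle set 2, and the aorta sets are likewise apart for both genes.

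The other genes of the same pathways were split between the tissues, and which paralog was higher differed. Ak6, an adenylate kinase outside the group, was higher, at 9.41 ± 2.73 CPM in Rosa26 muscle against 2.21 ± 1.51 CPM in Rosa26 aorta (log2 2.04, SE 0.44, edgeR adjusted p = 0.00271).

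Of the 10 tested genes of AMP, adenosine and purine turnover, 5 were called higher and 2 called lower in Rosa26 muscle. Over all genes tested, 58.4% were called and 27.5% were called higher. The estimates of the 10 were above 0 for 6 and below 0 for 4, with a median log2 fold change of 0.37, against -0.08 over all genes. The purine nucleotide cycle returns IMP to AMP through adenylosuccinate synthetase and lyase. Adssl1, the muscle form of the synthetase, averaged 419 ± 157 CPM in Rosa26 muscle and 22.9 ± 12.8 CPM in Rosa26 aorta, an 18.6-fold difference. Adss, the form of other tissues, averaged 13.6 ± 0.981 CPM in Rosa26 muscle and 56.6 ± 8.58 CPM in Rosa26 aorta (log2 -2.05). Adsl, the lyase, was 5.40-fold higher in Rosa26 muscle, and Nt5c1a, a cytosolic nucleotidase that acts on AMP, was 10.2-fold higher. The edgeR adjusted p-values of these 4 lay between 3.00e-06 and 1.79e-05.

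AMPK senses AMP and ADP, and its list held subunits of AMPK and the upstream kinase Stk11. Of the 7 tested genes, 4 were called higher, Stk11 among them, and 2 called lower in Rosa26 muscle. Of all genes tested, 58.4% were called and 27.5% called higher. Prkag3, a gamma subunit typical of fast muscle, averaged 331 ± 135 CPM in Rosa26 muscle and 0.627 ± 0.485 CPM in Rosa26 aorta. Prkab2, a beta subunit, averaged 804 ± 89.6 CPM in Rosa26 muscle and 11.2 ± 4.58 CPM in Rosa26 aorta, 70.5-fold higher. Prkaa2, a catalytic subunit, averaged 257 ± 46.2 CPM in Rosa26 muscle and 17.1 ± 2.46 CPM in Rosa26 aorta (log2 3.91, SE 0.22). Prkag2, another gamma subunit, was lower, at 9.81 ± 2.73 CPM in Rosa26 muscle and 44.9 ± 10.8 CPM in Rosa26 aorta (log2 -2.17, edgeR adjusted p = 7.22e-05). Their beta counterpart Prkab1 was also lower in Rosa26 muscle (log2 -1.97, SE 0.25). The median of the 7 was 0.99, which is the estimate of Stk11 itself (SE 0.34, edgeR adjusted p = 0.027). For Stk11 the Rosa26 tissues overlapped.

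Of the 4 tested genes of creatine transport, phosphocreatine hydrolysis and ADP/ATP exchange, 3 were called higher and 1 called lower in Rosa26 muscle. The shares over all genes tested were 58.4% called and 27.5% called higher. Slc25a4, the ADP/ATP exchanger of the inner mitochondrial membrane in muscle and heart, averaged 9353 ± 646 CPM in Rosa26 muscle and 903 ± 152 CPM in Rosa26 aorta (10.4-fold, edgeR adjusted p = 1.01e-06). Vdac1, the pore of the outer membrane, was 8.04-fold higher, and Slc16a12, a creatine transporter, was 2.69-fold higher at 1.95 ± 0.600 CPM in Rosa26 muscle and 0.721 ± 0.172 CPM in Rosa26 aorta. Alpl, the tissue-nonspecific alkaline phosphatase that can hydrolyse phosphocreatine, was lower, at 8.27 ± 1.33 CPM in Rosa26 muscle and 17.3 ± 6.29 CPM in Rosa26 aorta (log2 -1.05, SE 0.28, edgeR adjusted p = 0.0085).

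In gastrocnemius no energy buffer gene was called between dNdK and Rosa26, and 5 of the 6 tested estimates were below 0. The comparison asks how the transgene is associated with expression in old muscle. By edgeR 0 of all 10491 genes were called (0%), while 792 (7.55%) had an unadjusted p under 0.05 and DESeq2 called 6. None of the 6 tested genes had an unadjusted p under 0.05. Their median log2 fold change was -0.34, against 0.03 over all genes tested. The lean was not particular to them: of the 13 fast fibre markers, 12 estimates were below 0 and 1 above, with a median of -0.25. Compared with scaling by library size alone, TMM moved the median of all genes by -0.13 log2 units here, by 0.13 in aorta and by -0.29 in the difference between the tissues.

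Ampd1 gave the smallest adjusted p among them, with 757 ± 120.3 CPM in dNdK muscle (SD, n = 3) and 1027 ± 241 CPM in Rosa26 muscle (n = 4). Only dNdK 2 lay inside the Rosa26 range, and the other two dNdK libraries lay below it. The log2 difference was -0.42 (SE 0.23, 95% bounds -0.87 and 0.04, edgeR adjusted p = 0.701). It was -0.61 within set 1 and -0.14 within set 2. Ckm averaged 15107 ± 2487 CPM in dNdK muscle and 19102 ± 4011 CPM in Rosa26 muscle, and the groups overlapped, with dNdK 1 inside the Rosa26 range. Its log2 difference was -0.31 (SE 0.23, 95% bounds -0.77 and 0.14, edgeR adjusted p = 0.786).

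Ak1 averaged 3699.7 ± 793 CPM in dNdK muscle and 4377 ± 176 CPM in Rosa26 muscle. The dNdK values were all lower, but dNdK 1 at 4191 CPM was just under the lowest Rosa26 library at 4192 CPM, and the groups overlapped when scaled by library size alone. In muscle 5.96% of all genes tested had groups that did not overlap, 3.2% with dNdK lower. The log2 difference of Ak1 was -0.22 (SE 0.21, 95% bounds -0.63 and 0.18, edgeR adjusted p = 0.836). In TMM-scaled CPM muscle dNdK 3, the library with adipocyte RNA, was the lowest of the 7 muscle libraries for Ckm, Ckmt2, Ak1 and Ampd1, and its summed fast fibre markers, at 226356 CPM, were also the lowest. Scaled by library size alone, it stayed the lowest for Ckmt2 and Ak1 only. Ckm was then lower in Rosa26 2 (11376 against 11827 CPM) and Ampd1 in dNdK 1 (541 against 615 CPM) and Rosa26 4 (586 CPM). The part of the fat RNA of dNdK 3 in these values was not tested.

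Ckmt2 was spread widely within dNdK muscle, at 1071 ± 751 CPM, against 1392 ± 241 CPM in Rosa26 muscle. Library dNdK 2 was above all Rosa26 libraries, and dNdK 1 and 3 were below all of them. The log2 difference was -0.37 (SE 0.41, 95% bounds -1.17 and 0.44, edgeR adjusted p = 0.874), and it was -0.99 within set 1 and 0.38 within set 2. Myh1, the myosin of fast IIx fibres, was picked from the 13 fast fibre markers because its level moved with Ckmt2 in some libraries. It read 4491, 12456 and 1681 CPM in dNdK muscle and 3262, 8445, 13756 and 5213 CPM in Rosa26 muscle. The highest and lowest dNdK libraries for Myh1 were also the highest and lowest for Ckmt2, and so was the highest Rosa26 library. The order did not hold over the other Rosa26 libraries, since Rosa26 2 came second for Myh1 and was the lowest for Ckmt2. Whether fibre type makeup has a part in the spread of Ckmt2 was not tested.

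For creatine synthesis, Gamt averaged 68.7 ± 27.2 CPM in dNdK muscle and 69.2 ± 18.9 CPM in Rosa26 muscle, with a log2 difference of 0.02 (SE 0.31, 95% bounds -0.59 and 0.63, edgeR adjusted p = 0.994). Gatm averaged 5.17 ± 2.59 CPM in dNdK muscle and 6.97 ± 5.03 CPM in Rosa26 muscle (log2 -0.42, SE 0.63, 95% bounds -1.66 and 0.82, edgeR adjusted p = 0.909). The estimate for Gatm was 0.14 with the library set as a block, 0.62 within set 1 and -0.56 within set 2. Among the other pathway lists, 0 genes were called by edgeR in muscle. Adk, adenosine kinase, averaged 140.0 ± 42.4 CPM in dNdK muscle and 229 ± 27.0 CPM in Rosa26 muscle without overlap (log2 -0.69, SE 0.24, edgeR adjusted p = 0.656). It was not called, so the rule for naming genes does not cover it. In muscle 5.96% of all genes tested had groups without overlap, 3.2% with dNdK lower. Adss of the same list went the other way without overlap (log2 0.46, SE 0.22, edgeR adjusted p = 0.662). In dNdK 2, the lowest library for Adk, 7.38% of its reads lay on the first strand, against 30.1% to 47.9% in the other muscle libraries.

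**Figure D3:**
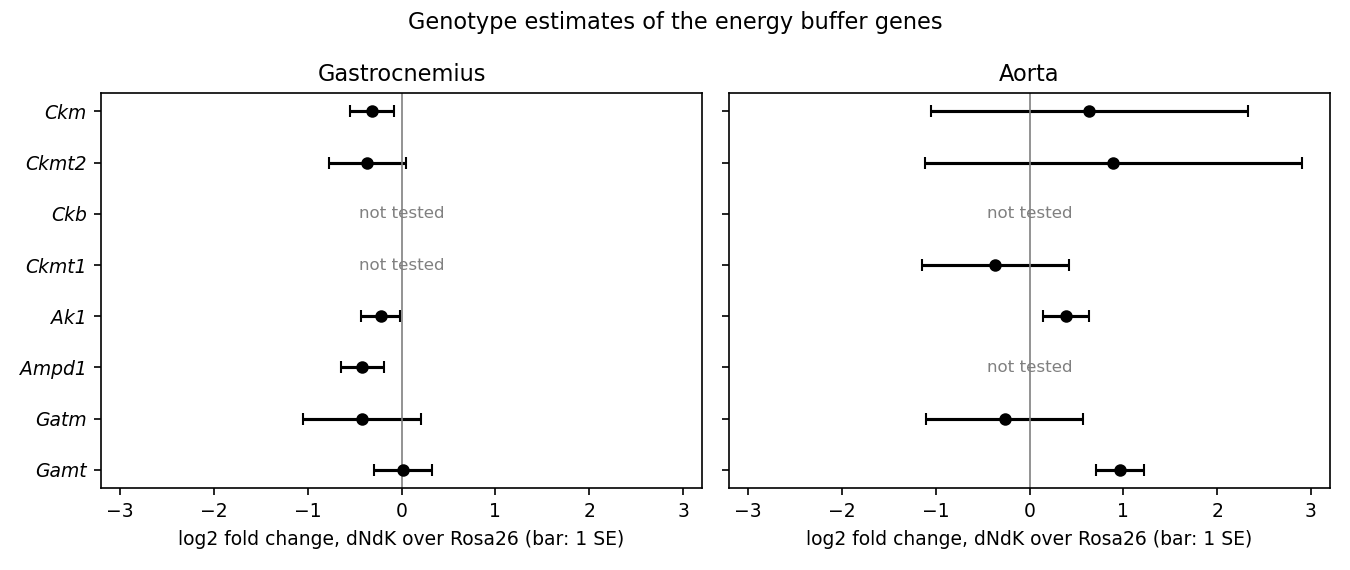
Log2 fold change of dNdK over Rosa26 from edgeR for each gene in gastrocnemius (left) and aorta (right), with bars of 1 SE; genes that did not pass the filter on low counts are marked as not tested. Estimates in muscle lie between -0.42 and 0.02, and in aorta Ckm and Ckmt2 carry an SE of 1.69 and 2.01 while Gamt stands at 0.97 with an SE of 0.26.

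In aorta no energy buffer gene was called between dNdK and Rosa26 either. Of all 11920 genes edgeR called 1 (0.00839%), while 713 (5.98%) had an unadjusted p under 0.05. Of the 6 tested members 4 estimates were above 0 and 1 had an unadjusted p under 0.05. Their median log2 fold change was 0.51, against -0.05 over all genes tested. The dNdK group has 2 libraries, and 1 where another is left out.

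Gamt was that gene, at 16.8 ± 2.38 CPM in dNdK aorta (SD, n = 2) and 8.53 ± 0.948 CPM in Rosa26 aorta (n = 4). Both dNdK libraries, at 15.1 and 18.5 CPM, lay above all Rosa26 libraries, the highest of which read 9.42 CPM. In aorta the groups did not overlap for 17.4% of all genes tested, 9.19% with dNdK higher. The log2 difference was 0.97, or 1.95-fold (SE 0.26, 95% bounds 0.46 and 1.47, edgeR adjusted p = 0.757). It was 0.97 within set 2 (edgeR adjusted p = 0.146) and 0.84 without the libraries with heart RNA (edgeR adjusted p = 0.558), where dNdK 1 alone stood against Rosa26 3 and 4 and was assumed to vary like them. It was 0.81 to 1.24 over 16 alternatives, with edgeR or DESeq2 adjusted p-values of 0.146 to 1. Gatm did not go with it, at 5.04 ± 0.227 CPM in dNdK aorta and 5.88 ± 5.22 CPM in Rosa26 aorta (log2 -0.27, SE 0.84, 95% bounds -1.91 and 1.38, edgeR adjusted p = 0.945). Within set 2, both dNdK libraries read less Gatm than both Rosa26 libraries (log2 -1.03, SE 0.34, edgeR adjusted p = 0.223). The sign was opposite, at 1.56, without the libraries with heart RNA, where dNdK 1 of set 2 stood against Rosa26 libraries of set 1 only, so that set and genotype cannot be told apart, and it was also opposite without aorta Rosa26 2, at 0.36.

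Ckm averaged 21.0 ± 29.1 CPM in dNdK aorta and 13.1 ± 16.1 CPM in Rosa26 aorta, and Ckmt2 averaged 49.2 ± 69.6 CPM in dNdK aorta and 25.8 ± 32.7 CPM in Rosa26 aorta. These spreads follow single libraries. Ckm and Ckmt2 were high where Myh6 was high, at 553 CPM of Myh6 in dNdK 2, 654 CPM in Rosa26 1 and 268 CPM in Rosa26 2, and near zero where Myh6 read 0.276 CPM in dNdK 1, 1.47 CPM in Rosa26 3 and 0 in Rosa26 4. All 15 heart markers of the list were in the tables, and they summed to between 20.5 and 3009.5 CPM in dNdK aorta and between 12.4 and 2822 CPM in Rosa26 aorta. Not every marker followed Myh6. Myl7, Tnni3, Tnnt2 and Actc1 ran from under 1 CPM to 248, 386, 726 and 969 CPM over the aorta libraries. Myl4, Nppa and Nppb stayed at or below 0.220, 1.07 and 0.553 CPM there, and Myl3 read 7.09 to 8.52 CPM in the dNdK libraries. Fast fibre markers stayed at 22.1 to 23.2 CPM in dNdK aorta and 15.8 to 28.8 CPM in Rosa26 aorta, and Myh4, the main myosin of gastrocnemius, was at most 1.93 CPM in any aorta library.

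**Figure D4:**
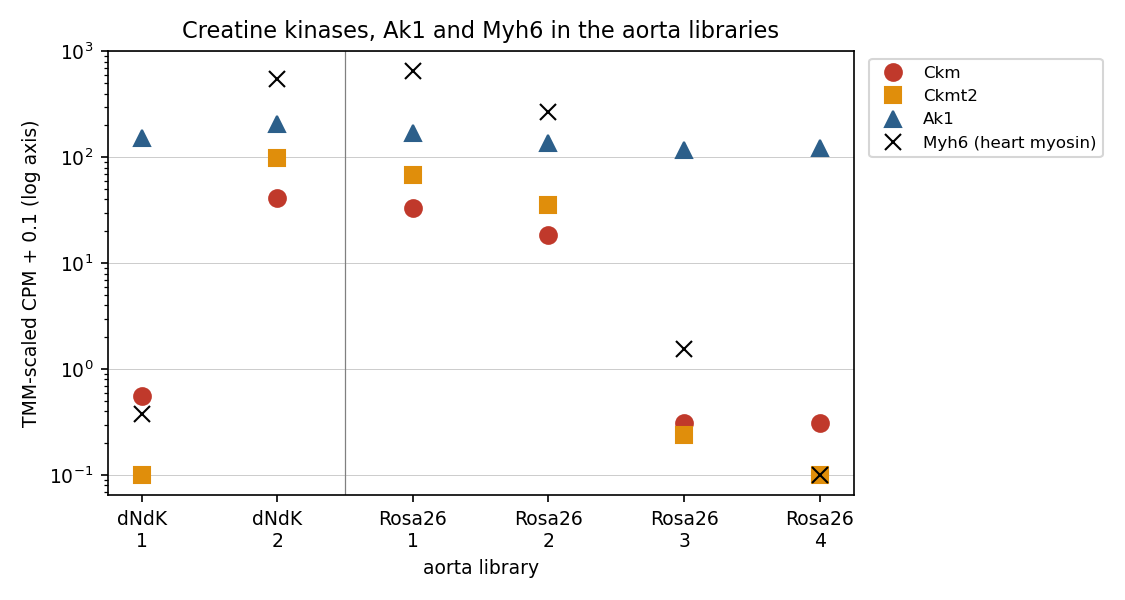
Level of Ckm, Ckmt2, Ak1 and the heart myosin gene Myh6 in each aorta library, in TMM-scaled CPM plus 0.1 on a log axis, with dNdK libraries left of the line and Rosa26 libraries right of it. Ckm and Ckmt2 are high in dNdK 2, Rosa26 1 and Rosa26 2, where Myh6 reads 268 to 654 CPM, while Ak1 stays between 118 and 205 CPM in all libraries.

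The genotype estimates in aorta were 0.64 for Ckm (SE 1.69, 95% bounds -2.67 and 3.95, edgeR adjusted p = 0.936) and 0.89 for Ckmt2 (SE 2.01, 95% bounds -3.04 and 4.83, edgeR adjusted p = 0.921). They were -0.31 and -0.08 within set 2. Without dNdK 2 the estimates were -4.80 for Ckm and -11.33 for Ckmt2, where the remaining dNdK library had 5 and 0 counts, so the sizes depend on the prior count of the fit. Ak1 averaged 179 ± 36.6 CPM in dNdK aorta and 136 ± 23.5 CPM in Rosa26 aorta with overlap (log2 0.39, SE 0.24, 95% bounds -0.09 and 0.87, edgeR adjusted p = 0.757). The Ckmt1 estimate was -0.37 (SE 0.78, edgeR adjusted p = 0.919), and it was 0.34 without aorta Rosa26 3, which held 32 of its counts. No gene of the other pathway lists was called in aorta by edgeR, and none had an unadjusted p under 0.05.

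Whether the genotype difference itself differed between the tissues was tested over all 13 libraries, with the value in muscle minus that in aorta. By edgeR 0 of 12318 genes were called (0%), 1044 (8.48%) had an unadjusted p under 0.05, and DESeq2 called 4. Of the 7 members tested, Gamt alone had an unadjusted p under 0.05, and gave -0.98 (SE 0.41, 95% bounds -1.78 and -0.17, edgeR adjusted p = 0.583), with the aorta estimate at 0.97 and the muscle estimate at 0.02. Ak1 gave -0.64 (SE 0.36, 95% bounds -1.34 and 0.06, edgeR adjusted p = 0.615). Ckm gave -1.01 (SE 1.88), Ckmt2 -1.30 (SE 2.28), Ckmt1 0.93 (SE 1.23) and Gatm -0.17 (SE 1.13), with edgeR adjusted p-values between 0.851 and 0.98. Without aorta dNdK 2 the values were 4.49 for Ckm and 10.66 for Ckmt2. In the 4 pairs of libraries that share a file name number, with that number as a block and 1 dNdK pair, edgeR called 247 genes and none of these 6, and the values were -0.16 for Gamt, -0.82 for Ak1, 1.19 for Ckm and 5.85 for Ckmt2. For Ampd1, with 0 to 3 counts in each aorta library, the difference has no readable size. No gene of the other pathway lists was called.

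The genes whose levels varied over libraries most like those of each member were found by the root mean square difference of tissue-centred log2 CPM, over the 6 aorta or the 7 muscle libraries, for members that ranged over more than 1 log2 unit. In aorta the closest to Ckm were Tnnc1 at 0.457, Tcap at 0.952 and Mb at 0.955, against a median of 3.032 over 7598 genes. The closest to Ckmt2 were Ankrd1 at 0.331, Tnni3 at 0.514 and Actc1 at 0.805, against a median of 4.078. These patterns share the libraries with heart RNA. Gatm in aorta was closest to Igtp at 0.213, Gbp7 at 0.233 and Tsc22d4 at 0.239, and Gamt to Rdh10 at 0.166, Pnpla3 at 0.168 and Pcgf1 at 0.183. In muscle, where 7409 genes were compared, Ckmt2 was closest to Cacng6 at 0.160, Nnt at 0.168 and Ung at 0.204, against a median of 0.692. Ampd1 was close to Ppp3ca at 0.114 and Sppl2b at 0.122, Gatm to Ccdc25, Wdr1 and Gpbp1 at 0.256 to 0.280, and Gamt to Capns1, Pgrmc2 and Hnmt at 0.143 to 0.168. For Ckmt1, with few counts, the closest were Glis2, Rpp21 and Pon1 in aorta and Tmem37, Spry4 and Csrnp1 in muscle.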

How the data were processed

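The 13 deposited tables hold read counts per gene, 1 library each; per the submitters' processing notes, STAR 2.5.2b, edgeR 3.28.1 and limma 3.42.2 were the tools, and the genome was mm10 (GRCm38.p6). Of the 3 deposited count columns, the one for both strands was used. The authors' counts were taken as deposited; lines for unmapped, multimapping, featureless and ambiguous reads were left out, and gene reads made up 86.66% to 91.42% of each table. Libraries carry no molecular identifiers, so intervals and floors cover counting error only.

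Counts were analysed in R 4.3.3. Low genes were removed with filterByExpr in edgeR 4.0.16 (minimum count 10, minimum total 15), and the rest were scaled by TMM and tested with the quasi-likelihood test in each tissue alone, in all 13 libraries for the tissue difference of the genotype effect, and in the Rosa26 libraries for muscle over aorta. P-values were adjusted by Benjamini and Hochberg over all genes tested, with a threshold of 0.05. The SE is the size of the log2 fold change divided by the root of its F statistic, and bounds are 95% normal bounds from it. Pooled ratios use exact 95% counting intervals. File name numbers shared by a muscle and an aorta library may pair them, though the labels do not say so: deviations from group means correlated at 0.368, 0.347 and 0.295 in the 3 Rosa26 pairs and 0.16 in the dNdK pair. Each of these Rosa26 pairs lies within a single library set, so pairing and set cannot be told apart there. Blocked values stand beside the results they move. The code was tested on simulated data. No libraries agreed within sampling noise. Of 19838 genes, 19636 matched RefSeq symbols.

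The members and lists were chosen with earlier results of these data known. All members were named. Of the other lists, up to 4 called genes per list and comparison were named by smallest p. Adk and Adss in the genotype comparison in muscle, Ampd3, Prkab1 and Stk11 are named outside this rule. For likeness, the 3 closest genes with a mean log2 CPM of at least 3 (prior count 2) were named, leaving out predicted genes without a name and members under 10 counts. Alternatives were RLE factors, library size alone, DESeq2 1.42.0, no filter on low counts, each strand alone, all libraries in 1 fit, replicate and file name numbers as a block, leaving out each library, and leaving out aorta libraries with Myh6 above 100 CPM. The library sets (average linkage on strand shares of genes with over 50 counts in each library) and the file name block for the genotype effect across tissues were added after seeing the data. Some genes that these rules name are not reported here.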

Additional observations from a re-analysis of the deposited data

How the results depend on the processing

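The 5 members called in muscle over aorta kept their direction and call in all alternatives that gave them a value. Numbers of genes called by edgeR changed more. In aorta, main 1, the count was 18 with DESeq2, 0 on either strand alone, 0 with all 13 libraries in 1 fit (643 at an unadjusted p under 0.05), 30 without the libraries with heart RNA (1 dNdK library of set 2 against 2 Rosa26 libraries of set 1), 179 within set 2 (2 against 2) and 0 to 1 leaving out each library. In muscle, main 0, it was 6 with DESeq2, 39 within set 2 (1 dNdK library against 2) and 0 to 3 leaving out each library, with 3 without dNdK 1. The tissue difference of the genotype effect, main 0, gave 4 with DESeq2 and 247 with the file name number as a block (1 dNdK pair). A lone library was assumed to vary like the others. For muscle over aorta leaving out each library gave 5971 to 6440.

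Estimates that changed sign missed the threshold under both settings. Gatm in muscle over aorta was -0.68 by library size alone and -0.10 to 0.82 leaving out each library, and it passed the threshold, at 2.08, without the libraries with heart RNA, where all aorta libraries are of set 1; within sets it was 0.62 and 0.18. In aorta within set 2, Ckm was -0.31, Ckmt1 0.17 and Ckmt2 -0.08; Gatm was 1.56 without the libraries with heart RNA. Leaving out each library gave -4.80 to 1.63 for Ckm, -0.57 to 0.34 for Ckmt1, -11.33 to 1.97 for Ckmt2 and -0.60 to 0.36 for Gatm. In muscle, Gamt was 0 with RLE factors and DESeq2, -0.01 with no filter and in the joint fit, -0.06 on the second strand, -0.35 within set 2 and -0.37 to 0.20 leaving out each library; Gatm was 0.14 with the set as a block and 0.62 within set 1, and Ckmt2 0.38 within set 2. For the tissue difference of the genotype effect, Gatm was 0.15 by library size alone, 1.12 with the set as a block and -0.77 to 0.18 leaving out each library. There Ckmt2 was 2.66 without the libraries with heart RNA, and leaving out each library gave -2.02 to 4.49 for Ckm and -2.40 to 10.66 for Ckmt2. With the file name number as a block these were 1.19 and 5.85. The cause was not tested.

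Title numbers were not shown to pair the libraries. Same-numbered deviations correlated at -0.523 and 0.387 in aorta, 0.368, 0.024 and 0.009 in muscle, and -0.391 to 0.295 between tissues. In aorta the deviations of the 2 dNdK libraries mirror each other, so these values are not separate evidence. Between tissues, pairs within a library set gave 0.261 and 0.295, and pairs across sets -0.358 and -0.391. These correlations therefore cannot decide on pairing. With the replicate block, 163 genes were called in aorta and 0 in muscle (389 at an unadjusted p under 0.05), Ckm was -1.67, Ckmt1 0.17 and Ckmt2 -2.08 in aorta, Gamt -0.16 in muscle, and the genotype effect's tissue difference 1.74 for Ckm, 2.05 for Ckmt2 and 0.42 for Gatm. On plain CPM, 12 of 32 group means moved by over 1 SD. Depth limits Ckb and Ckmt1 in both tissues and Ampd1 in aorta.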
